A study of Danio rerio with 8 samples.

Results

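Transcripts of Hedgehog signalling were followed in the zebrafish cornea 1.5 h after its epithelium had been abraded, with the Gas1 coreceptors, the ligands shha and ihhb, the receptor ptch1, the transducer smo and the transcription factors gli1, gli2a and gli3 as members. The 9 names were sought by zebrafish symbol and by its capital form, and they led to 10 identifiers among the 32520 genes of the count table. The symbol GAS1 belongs to ENSDARG00000067984 and ENSDARG00000077298, and SHH to ENSDARG00000068567 and ENSDARG00000038867. Which copy is the a or the b form was not resolved here, so that the copies are called by their identifiers, and the second SHH copy may be the one that the list of names leaves out. Of the 10 identifiers, 7 passed the filter on low counts, and SHH (both copies) and ihhb did not. The genes were chosen by their measured difference between wounded and control corneas, above all the low GAS1 counts after wounding, so that this difference is given for them as a description, with no p-value, and the calls counted further down for these genes are no evidence of their change.

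The fish were adults of the strain Wild type (AB background). Wounded fish had both corneas abraded, and control fish were anaesthetised and laid on a sponge for as long, with no abrasion. Each of the 4 control and 4 wounded libraries held RNA of 6 corneas pooled from 3 fish, so that the pool is the replicate. Control and wounded libraries of 1 number came from fish of the same tank and the same age, numbers 1 and 4 being older (180 and 183 days) and numbers 2 and 3 younger (145 and 148 days). The study left wounded library 1 out of its comparison after a principal component analysis, and it is given apart here. Whole corneas were taken, so that epithelium, stroma and endothelium are measured as a mixture.

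Hedgehog ligands are secreted proteins that bind Patched receptors and thereby release Smoothened from their inhibition. Active Smoothened gathers in the primary cilium, and the Gli proteins, which act as activators or repressors of transcription, carry the signal to the nucleus. Ptch1 and Gli1 are at once components and widely used target genes of the pathway in vertebrates. Gas1 is a membrane-anchored protein that binds Hedgehog ligands and helps Patched to receive them, together with Cdon and Boc, and in the mouse its transcription is repressed by Hedgehog signalling. Gas1 was first described in mouse fibroblasts as a gene of growth arrest, and its protein is related to the receptors of the GDNF family.

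Library totals lay between 39472162 and 44250662 counts, and values are given as CPM, that is counts relative to the library total after TMM scaling, which adjusts for the composition of the libraries. The summed CPM of 24 genes of corneal epithelium lay between 101591 and 107041 in the controls, between 95026 and 97589 in wounded libraries 2 to 4 and at 64740 in wounded library 1, and none of these genes was at 0 in all libraries. The low sum of wounded library 1 came mostly from abundant keratins. There krt5 was at 22613 CPM (41497 to 42770 in the controls) and krt91 at 19246 (31543 to 35469). DSP ENSDARG00000022309, at 1964 (2135 to 3895), and PPL, at 1975 (2811 to 4211), also lay below all controls, whereas the other DSP copy, evpla and cldni lay within them. The adhesion genes epcam, at 3847 (2999 to 3443), and cdh1, at 1515 (1099 to 1280), lay above all controls. Epcam did so in wounded libraries 2 to 4 as well, and cdh1 in wounded libraries 2 and 3. These genes were chosen after their values were seen. Wounded library 1 also held the most retina RNA (474 CPM over 38 genes, against 171 to 365 in the other libraries) and pigment cell RNA (309 CPM over 19 genes, against 156 to 237). The part of these shifts in the values below was not tested. In bulk RNA, fewer cells of a type and less RNA per cell cannot be told apart.

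The GAS1 copy ENSDARG00000077298 was less abundant in every wounded library than in any control. Its CPM was 69.5, 74.7, 65.7 and 60.8 in control libraries 1 to 4 and 28.7, 28.2 and 30.3 in wounded libraries 2 to 4. Wounded library 1, which the choice of genes did not use, was at 30.7, beside the other wounded libraries and below all controls. Control corneas averaged 67.7 ± 5.88 CPM (SD, n = 4) and wounded ones 29.1 ± 1.08 CPM (SD, n = 3), which is a log2 difference of -1.23 (SE 0.13) or 2.34-fold less. The gap between the lowest control and the highest wounded library was far wider than the spread inside either group. The difference stayed between -1.27 and -1.18 over the 15 alternative analyses.

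The other GAS1 copy, ENSDARG00000067984, was measured at a lower CPM, and its groups overlapped. It was at 5.97, 4.32, 5.91 and 7.30 CPM in control libraries 1 to 4 and at 3.67, 2.33 and 5.08 in wounded libraries 2 to 4. Wounded library 1 was at 3.34, below all 4 controls, whereas wounded library 4 lay above control library 2. The log2 difference was -0.68 (SE 0.29), and it moved from -0.98 without wounded library 4 to -0.43 without wounded library 3. The raw counts of this copy were between 91 and 315 per library, so that counting error was a small part of its spread. Its CV was 20.7% over the controls and 37.3% over the wounded libraries, against 8.68% and 3.73% for ENSDARG00000077298.

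**Figure D1:**
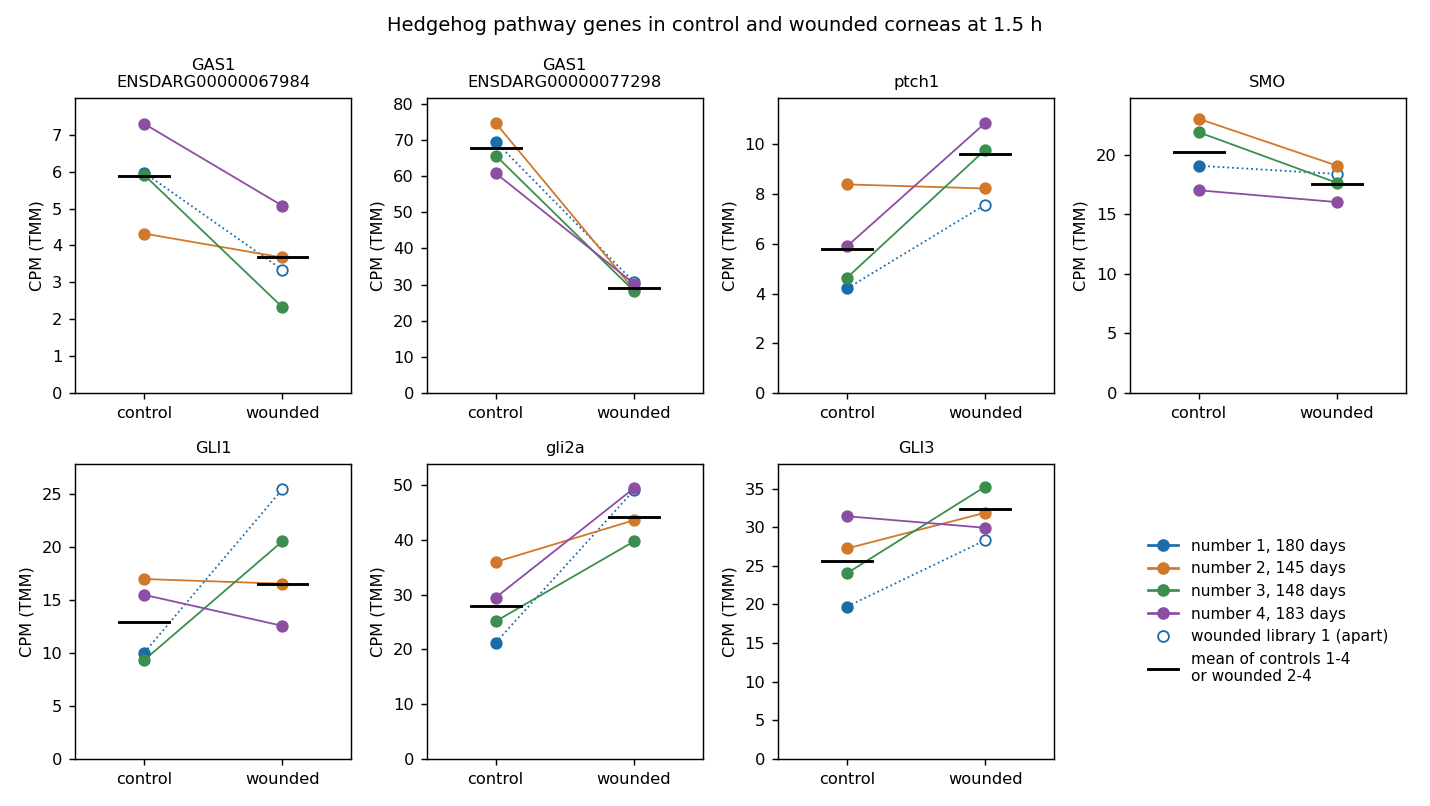
CPM after TMM scaling (y axis, from 0) in control and wounded corneas (x axis) for the 7 members that passed the filter on low counts, 1 panel per gene. Points are libraries, lines join libraries of the same tank, open circles with dotted lines mark wounded library 1, and black bars are means of control libraries 1 to 4 and wounded libraries 2 to 4. All wounded libraries of GAS1 ENSDARG00000077298 sit between 28.2 and 30.7 CPM, below the lowest control at 60.8, and all of gli2a sit above its highest control at 36.

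The receptor ptch1, which holds Smoothened inactive until a ligand binds, was higher on average after wounding, with overlap. Control libraries 1 to 4 had 4.21, 8.39, 4.64 and 5.91 CPM, and wounded libraries 2 to 4 had 8.23, 9.79 and 10.9. Control library 2 stood above wounded library 2 of its own tank, and wounded library 1, at 7.58 CPM, lay within the controls. Controls averaged 5.79 ± 1.88 CPM (SD, n = 4) and wounded corneas 9.63 ± 1.33 CPM (SD, n = 3), which is a log2 difference of 0.72 (SE 0.25). Leaving out control library 2 gave the highest value of the alternatives, 0.96, and leaving out control library 1 the lowest, 0.60.

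The transducer smo differed least among the members that passed the filter. Its CPM was 19.1, 23.0, 21.9 and 17.0 in control libraries 1 to 4 and 19.1, 17.6 and 16.0 in wounded libraries 2 to 4, and wounded library 1 was at 18.4. The wounded values lay in the lower part of the control range or just below it. The log2 difference was -0.21 (SE 0.16).

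All Gli genes among the members had positive differences, where 48.9% of all genes tested had a negative one. Only gli2a had groups that did not overlap. Over all genes tested, 8.51% had wounded libraries 2 to 4 above all controls. The genes were chosen by this same difference. The CPM of gli2a, which in vertebrates encodes a Gli protein able to activate or repress its targets, was 21.2, 36, 25.1 and 29.5 in control libraries 1 to 4 and 43.6, 39.7 and 49.4 in wounded libraries 2 to 4. Wounded library 1 was at 49.1, again above all controls. Controls averaged 27.9 ± 6.32 CPM (SD, n = 4) against 44.2 ± 4.89 CPM (SD, n = 3) after wounding, which is a log2 difference of 0.65 (SE 0.18) or 1.57-fold more. Control library 2 was the highest control of gli2a, as it was of ptch1, and without it the difference of gli2a was 0.80.

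The activator gli1 overlapped widely. Its CPM was 10, 16.9, 9.31 and 15.5 in control libraries 1 to 4 and 16.5, 20.5 and 12.5 in wounded libraries 2 to 4. The highest value of gli1, 25.4 CPM, was in wounded library 1, and the log2 difference was 0.34 (SE 0.25) without that library and 0.53 with all 8 libraries. Leaving out 1 of the other libraries also moved it, to 0.17 without wounded library 3, 0.22 without control library 3 and 0.51 without wounded library 4. Controls were split into a pair near 10 CPM (numbers 1 and 3) and a higher pair (numbers 2 and 4). Gli3, mainly known as the repressor of the family, had 19.7, 27.3, 24.1 and 31.4 CPM in control libraries 1 to 4 and 31.9, 35.3 and 29.9 in wounded libraries 2 to 4. Its wounded library 1 was at 28.3, within the controls, and the log2 difference was 0.33 (SE 0.17).

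The ligand genes were near the limit of detection. The SHH copy ENSDARG00000068567 had 6, 8, 0 and 9 counts in control libraries 1 to 4, 13, 13 and 4 in wounded libraries 2 to 4 and 9 in wounded library 1. The SHH copy ENSDARG00000038867 had 12, 17, 0 and 3 counts in the controls, 0 in each of wounded libraries 2 to 4 and 2 in wounded library 1. Its reads thus came mostly from control libraries 1 and 2, while control library 3 had none. The ligand ihhb had 7, 11, 0 and 6 counts in the controls, 0, 4 and 5 in wounded libraries 2 to 4 and 0 in wounded library 1. A count of 0 allows up to 3 counts, or 0.0686 to 0.0767 CPM depending on the library, and this limit covers counting error only. Control library 3 had 0 counts for all 3 ligand identifiers, at a total of 40714985 counts, and no fold change is given for these ligands at so few counts.

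In the comparison of wounded libraries 2 to 4 with control libraries 1 to 4 by edgeR's quasi-likelihood test, with Benjamini-Hochberg adjustment over 18935 genes, an adjusted p of 0.05 was passed by 0.734% of all genes as higher and by 0.634% as lower. Of the 7 members, 1 passed as lower (GAS1 ENSDARG00000077298) and 0 as higher. DESeq2 called 9.29% of its 14191 genes in either direction, and among the members 1 as higher (gli2a) and 1 as lower (the same GAS1 copy). With the tank as a block, 2.71% of all genes were higher and 2.51% lower, and of the members again only GAS1 ENSDARG00000077298 passed. Since wounded library 1 was left out, control library 1 had no partner in that fit. Its wounding differences, here and below, thus rest on tanks 2 to 4. The median log2 difference of the 7 members was 0.33, beside 0.01 over all genes tested. Wounded libraries 2 to 4 all lay above all controls for 1 member and below them for 1, beside 8.51% and 9.02% of all genes. The members were selected on this same difference, so that these counts describe them and no more.

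Within tanks, GAS1 ENSDARG00000077298 was lower in the wounded library each time. Its log2 difference between the wounded and the control library was -1.18 in tank 1, -1.38 in tank 2, -1.22 in tank 3 and -1.0 in tank 4. That of gli2a was 1.21, 0.28, 0.66 and 0.74, positive in each tank and smallest in tank 2. For ptch1 the values were 0.84, -0.03, 1.07 and 0.87, so that tank 2 stood apart. The values of gli1 were split by tank, with 1.34 in tank 1 and 1.13 in tank 3 against -0.04 in tank 2 and -0.30 in tank 4. Gli3 had 0.52, 0.23, 0.55 and -0.07. For GAS1 ENSDARG00000067984 they were -0.83, -0.23, -1.33 and -0.52, negative in each tank, and for smo they were -0.05, -0.27, -0.31 and -0.09. Tank 1 rests on wounded library 1, which the study left out, and each tank gives 1 difference without an error of its own.

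**Figure D2:**
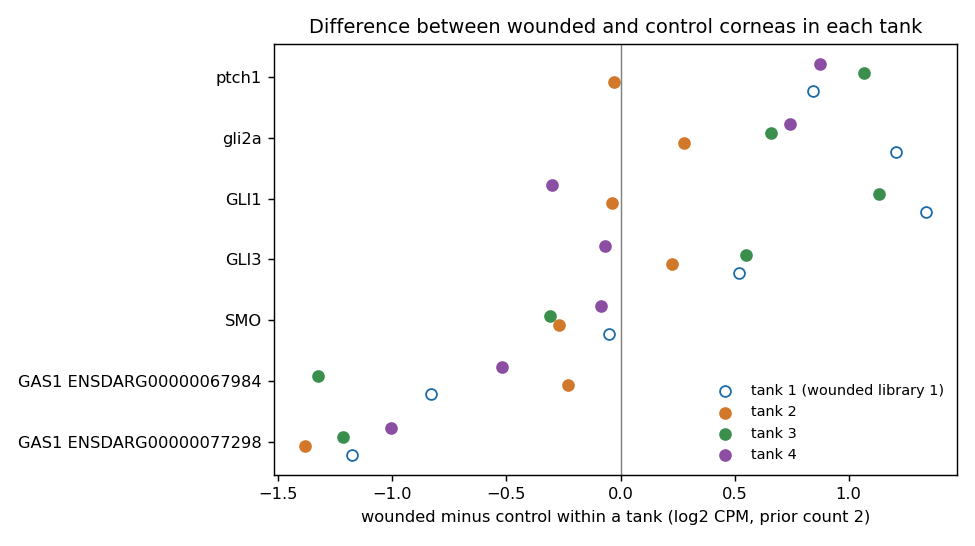
Difference in log2 CPM (prior count 2) between the wounded and the control library of a tank (x axis), for the 7 members that passed the filter (y axis). Each point is 1 tank, and the open circle is tank 1 with wounded library 1. GAS1 ENSDARG00000077298 lies between -1.38 and -1.0 in the 4 tanks, whereas gli1 ranges from -0.30 to 1.34.

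Age was not used to choose the genes, and it could therefore be tested. The older fish (180 and 183 days) were compared with the younger ones (145 and 148 days) in the same 7 libraries with the treatment as a covariate. Age and tank cannot be told apart, since each tank held fish of 1 age. The tank is thus the unit of age, with the tanks of 180 and 183 days against those of 145 and 148 days. The fit held no term for the tank, so that libraries of 1 tank counted as separate replicates of age. The standard errors and p-values of this comparison may therefore be too small. By edgeR 45 of 18935 genes (0.238%) passed an adjusted p of 0.05. None of the 7 members did, 0 had an unadjusted p under 0.05, and DESeq2 called 0. The highest difference was that of GAS1 ENSDARG00000067984, at a log2 difference of 0.52 (SE 0.24, edgeR adjusted p = 0.588). Its older controls had 5.97 and 7.30 CPM and its younger controls 4.32 and 5.91, and wounded library 4, from older fish, had 5.08 against 3.67 and 2.33 in the younger wounded libraries. Wounded library 1 was also from older fish and did not keep this order, at 3.34 CPM.

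The other GAS1 copy, ENSDARG00000077298, differed by only -0.03 with age (SE 0.13, edgeR adjusted p = 0.973). Smo was at -0.27 (SE 0.14, edgeR adjusted p = 0.629), and gli1 at -0.25 (SE 0.25, edgeR adjusted p = 0.839). For ptch1, gli2a and gli3 the differences were -0.11 (SE 0.26), -0.06 (SE 0.19) and -0.07 (SE 0.18). These small age differences had no stable sign, since leaving out single libraries moved ptch1 from -0.37 to 0.20, gli2a from -0.27 to 0.13, gli3 from -0.27 to 0.07 and GAS1 ENSDARG00000077298 from -0.11 to 0.04. Each of these standard errors allows a moderate age difference that 7 libraries would not have called. Whether the response to wounding differed with age was tested as an interaction in all 8 libraries, where edgeR called 0 of 20018 genes, with 390 at an unadjusted p under 0.05. Of 9 members that entered this fit, 0 had an unadjusted p under 0.05. Both SHH copies were among the 9 in spite of their few counts, with standard errors of 2.02 and 3.50. The older wounded libraries in this fit were numbers 1 and 4, so that it rests in part on wounded library 1, which the study left out. The interaction fit held no term for the tank, although the numbers pair the libraries, and each age held few libraries per treatment. A difference in the response could thus have been missed. The interaction of GAS1 ENSDARG00000077298 was 0.20 (SE 0.28) and that of gli2a 0.51 (SE 0.35) on the log2 scale, older minus younger.

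**Figure D3:**
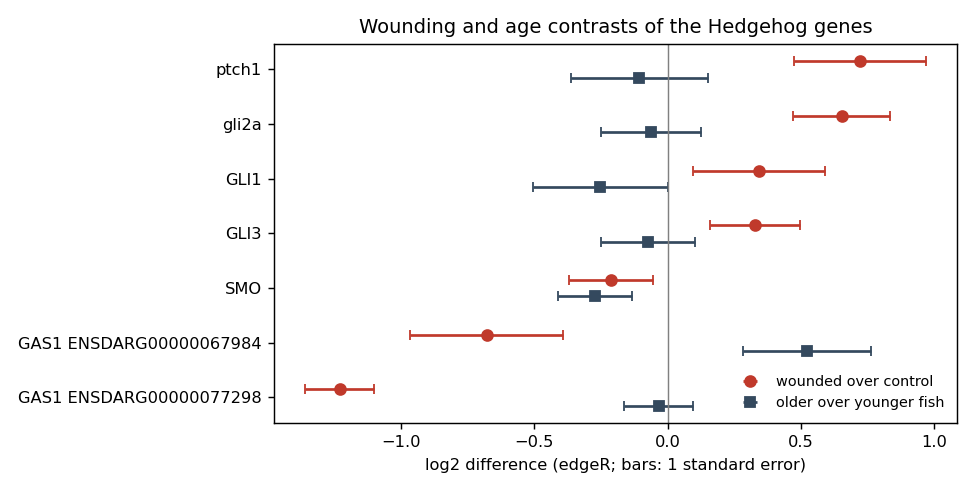
Log2 differences from edgeR (x axis) for the 7 members that passed the filter (y axis), between wounded and control corneas (circles) and between older and younger fish (squares), with bars of 1 standard error. The wounding values were used to choose the genes and the age values were not. The age differences lie between -0.27 and 0.52, and that of GAS1 ENSDARG00000077298 is -0.03 beside -1.23 for wounding.

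The rest of the pathway was taken from lists of ligand, receptor, transduction, Gli and target genes. Of 70 further identifiers on these Hedgehog lists, 61 passed the filter on low counts. By edgeR 0 of the 61 passed an adjusted p of 0.05 in either direction in wounded corneas, with 10 higher and 9 lower at an unadjusted p under 0.05. The share of all genes at that unadjusted p is not given here, so that such counts only describe the lists. DESeq2 called 2 higher and 5 lower, beside 9.29% of its 14191 genes in either direction. With the tank as a block, edgeR called 1 higher and 3 lower, beside 2.71% and 2.51% of all genes. Their median log2 difference was 0.00, beside 0.01 over all genes. Wounded libraries 2 to 4 all lay above all controls for 6 of the 61 and below them for 10, beside 8.51% and 9.02% of all genes. In the comparison by age edgeR called 0 of the 61, with 6 at an unadjusted p under 0.05, and DESeq2 called 1.

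Among 8 genes of ligands and ligand release that were tested, edgeR called 0, with 1 higher at an unadjusted p under 0.05 and 0 called by DESeq2. Scube1, of a family of secreted proteins that help release the ligand, had 8.73 to 12 CPM in the controls and 12.3 to 14.7 in wounded libraries 2 to 4 (log2 difference 0.44, SE 0.17, edgeR adjusted p = 0.208). The differences of HHATL ENSDARG00000039051 (-0.72), HHAT, the acyltransferase that lipidates the ligand (0.46), and ihha (-0.81) had standard errors of 0.56, 0.53 and 1.04. No direction can be read from them.

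The receptors other than the members included the partners of Gas1. The coreceptor CDON had 58.1, 74.9, 81.9 and 89.0 CPM in control libraries 1 to 4 and 90.5, 108 and 102 in wounded libraries 2 to 4. These groups did not overlap, but wounded library 1, at 79.9, fell within the controls, and the log2 difference of 0.39 (SE 0.15) did not pass (edgeR adjusted p = 0.214). BOC was at 0.04. The ligand-binding HHIP (0.32) and the glypican GPC4 (-0.19) had edgeR adjusted p-values of 0.330 and 0.372. Of the 8 such receptor genes tested, 0 were called by edgeR or DESeq2, and 2 were higher at an unadjusted p under 0.05.

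The second GLI2 copy, ENSDARG00000020884, was measured at a low level in each library. It had 0.373, 0.915, 0.472 and 0.649 CPM in control libraries 1 to 4, 1.37, 2.35 and 1.53 in wounded libraries 2 to 4 and 1.02 in wounded library 1. All wounded libraries were above all controls, as for gli2a, and the log2 difference of 1.52 (SE 0.42) did not pass (edgeR adjusted p = 0.0947). Reads of the GLI2 copies may be assigned to one another where their sequences match, which was not tested.

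Of 29 signal transduction genes, edgeR called 0, and at an unadjusted p under 0.05 there were 3 higher and 7 lower. Wounded libraries 2 to 4 all lay above all controls for 2 of the 29 and below them for 7, beside 8.51% and 9.02% of all genes. The kinase gene grk3 had 4.17 to 6.12 CPM in the controls and 7.96 to 10.3 in wounded libraries 2 to 4, and 5.76 in wounded library 1. Its log2 difference of 0.81 (SE 0.19) had an adjusted p of 0.0674 by edgeR, 0.00903 by DESeq2 and 0.0403 by edgeR with the tank as a block. Both CUL3 copies, which encode the scaffold of a ubiquitin ligase that marks Gli proteins for destruction, had wounded libraries 2 to 4 below all controls. Their log2 differences were -0.55 for ENSDARG00000100108 and -0.38 for ENSDARG00000038967, with edgeR adjusted p-values of 0.0947 and 0.114 and DESeq2 adjusted p-values of 0.0225 and 0.0468. GSK3B, a kinase that phosphorylates Gli proteins and also acts in Wnt signalling, was at -0.67 (SE 0.19), with adjusted p-values of 0.0973 by edgeR, 0.0175 by DESeq2 and 0.0404 with the block. SUFU, which holds Gli proteins in the cytoplasm, was at 0.09.

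The list of target genes held 19 genes beside the members, of which edgeR called 0, with 4 higher and 2 lower at an unadjusted p under 0.05. The cyclin gene CCND1 had 44.4 to 52.3 CPM in the controls, 33.9 to 35.3 in wounded libraries 2 to 4 and 39 in wounded library 1. Its log2 difference of -0.53 (SE 0.12) had an adjusted p of 0.0644 by edgeR, 0.00661 by DESeq2 and 0.0443 with the block. The Notch ligand jag2b had 160 to 245 CPM in the controls and 85.1 to 145 in wounded libraries 2 to 4, a log2 difference of -0.82 (SE 0.20) with adjusted p-values of 0.0736, 0.00401 and 0.00602 in the same order. Prdm1a, a transcriptional repressor downstream of Hedgehog in zebrafish muscle, was at 1.0 (SE 0.29), with 0.102 by edgeR, 0.0144 by DESeq2 and 0.0523 with the block. CDK6 was at 1.51 (SE 0.47, edgeR adjusted p = 0.125), from a level of 0.535 ± 0.145 CPM (SD, n = 4) in the controls. Several of these targets answer to many pathways, and the 19 genes differed in both directions, 10 positive and 9 negative. The list also held CDON and BOC, and the Gas1 copies, whose transcription is repressed by Hedgehog signalling in the mouse. Its signs therefore have no single direction to be read against.

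**Figure D4:**
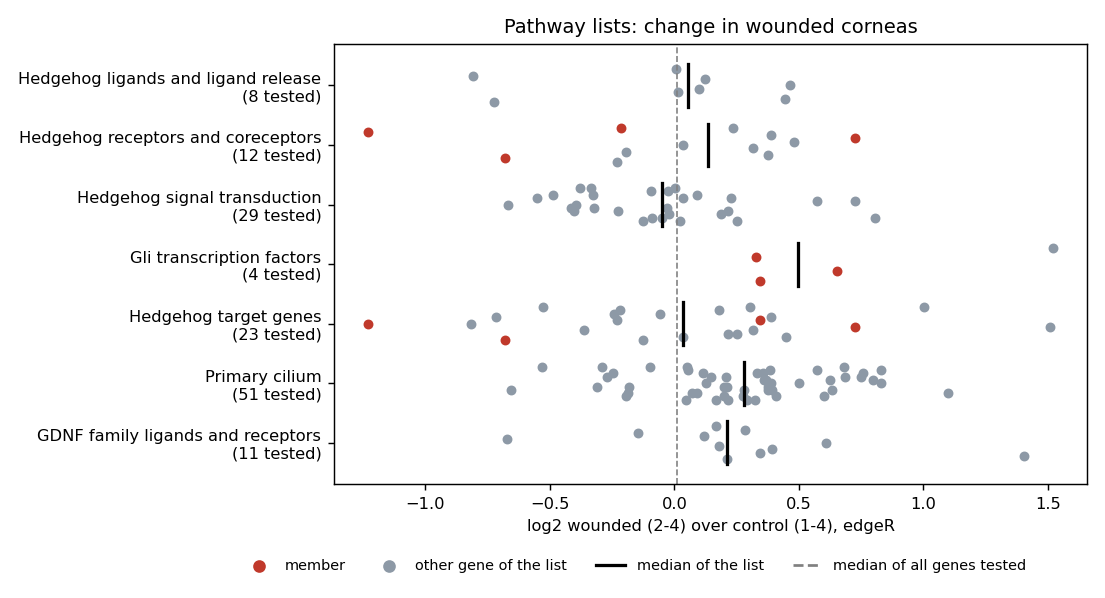
Log2 difference between wounded libraries 2 to 4 and control libraries 1 to 4 from edgeR (x axis) for the tested genes of 7 lists (y axis, vertical scatter has no meaning), with the members in red and the other genes in grey. Black bars are list medians with the members included, and the dashed line is the median of all genes tested, 0.01. The list of primary cilium genes has its median at 0.28 and that of signal transduction genes at -0.05, and a gene on 2 lists is drawn in both.

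Genes of the primary cilium, the organelle in which vertebrate cells process the Hedgehog signal, and of the GDNF family, whose receptors resemble Gas1, were added as neighbouring lists. Of 51 cilium genes tested, 41 had a positive and 10 a negative log2 difference, with a median of 0.28, where 48.9% of all genes tested had a negative difference. A median of this size was not particular to the cilium list. Those of the cell type lists lay between -0.35 (retina) and 0.67 (erythrocytes), with 0.28 for pigment cells and 0.27 for keratocytes and stroma. By edgeR 0 passed the adjusted p, with 6 higher and 1 lower at an unadjusted p under 0.05. DESeq2 called 2 higher, beside 9.29% of all its genes in either direction. Tmem67, a protein of the ciliary transition zone, had 4.65 to 6.17 CPM in the controls, 7.89 to 10.3 in wounded libraries 2 to 4 and 7.67 in wounded library 1 (log2 difference 0.76, SE 0.18), with adjusted p-values of 0.0705 by edgeR and 0.0116 by DESeq2. The transport genes ift172 (0.68) and wdr35 (0.75) and the BBSome gene bbs2 (0.63) had edgeR adjusted p-values of 0.113, 0.150 and 0.166, and ift172 had 0.0329 by DESeq2. Wounded libraries 2 to 4 all lay above all controls for 8 of the 51 genes and below for 1, beside 8.51% and 9.02% of all genes.

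For the GDNF family, 9 of 11 genes had a positive difference and the median was 0.21. Neither edgeR nor DESeq2 called any of the 11, and 0 had an unadjusted p under 0.05. The GFRA1 copy ENSDARG00000102564 was at -0.67 (SE 0.43), from levels under 1 CPM. The receptor kinase RET (0.21), gfra1a (0.34) and gfra4b (1.40, SE 1.22) had groups that overlapped.

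Over the 8 libraries, the genes closest in pattern to GAS1 ENSDARG00000077298 were phf23b, RBM12, TFAP2A, P2RY1 and PIGA. Their root mean square distance from it in centred log2 CPM was 0.114 for phf23b, 0.152 for RBM12, 0.180 for TFAP2A and 0.184 for both P2RY1 and PIGA, where GAS1 itself varied with an SD of 0.645. Their log2 differences between wounded and control corneas lay between -1.43 (TFAP2A) and -1.04 (RBM12). TFAP2A encodes a transcription factor of the surface ectoderm and P2RY1 a receptor for extracellular nucleotides. For ptch1, which varied with an SD of 0.492, the closest were iqgap2 (0.123), EML4 (0.126), trpm6 (0.132), taf6 (0.139) and zgc:114045 (0.149). With only 8 libraries split mainly by wounding, such closeness is a description of these libraries.

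Markers of the other cell types moved as follows beside these values. Vascular endothelium (16 genes) had a summed 150 to 176 CPM in the controls, 200 to 233 in wounded libraries 2 to 4 and 193 in wounded library 1, without overlap. The sums of lens markers and, as given above, of corneal epithelium did not overlap either, the latter being lower after wounding. Within the vascular list, single genes such as cdh5, tek and vwf overlapped, whereas others such as TIE1 did not. Pigment cell markers overlapped slightly, at 156 to 189 CPM in the controls and 186 to 237 in wounded libraries 2 to 4. Nerve and glia (18 genes, 171 to 213 against 201 to 276 CPM), keratocytes and stroma (22 genes, 14907 to 22993 against 15274 to 27227 CPM) and leukocytes (23 genes, 1129 to 1700 against 1205 to 1504 CPM) overlapped. So did retina (38 genes, 171 to 365 against 177 to 331 CPM, with nrl at 0 in all libraries), erythrocytes (6 genes, 21.2 to 40.2 against 36 to 57 CPM) and muscle (10 genes, 495 to 1050.4 against 596 to 731 CPM). Lens markers summed to 2.48 to 4.10 CPM in the controls, 4.65 to 5.72 in wounded libraries 2 to 4 and 4.29 in wounded library 1. These sums are low and rest on few counts for most genes. The most abundant lens gene, crybb3, overlapped, at 1.44 to 2.45 CPM in the controls and 3.72, 3.99 and 1.50 in wounded libraries 2 to 4. Of the 19 lens genes, 5 were at 0 in all libraries, cryba1b, GRIFIN and the MIP copy ENSDARG00000013963 among them. Of these lists, edgeR called 0 genes. Of 22 tested genes of corneal epithelium it called 1 higher and 3 lower, beside 0.734% and 0.634% of all genes. These calls are no measure of the number of epithelial cells. The part of the cell types in the difference of GAS1, ptch1 and gli2a was not tested.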

How the data were processed

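RNA of 8 pools of corneas was sequenced from poly(A) libraries made with a directional kit, and read from 1 end. Base calling by the authors was with bcl2fastq 2.20.0.422. They used STAR 2.6.0c on GRCz11 and featureCounts on Ensembl release 97, and deposited raw counts per gene without normalization. Trimmomatic is named in the submitters' processing notes without settings. Whether reads were counted by strand is not given in the sources used here, so that reads of antisense genes may be included. Reads of the copies of GAS1, SHH and GLI2 may be assigned to one another where their sequences match, which was not tested. The study's table of 1992 genes at hand served only to name identifiers, by its normalized values (within 0.01%), and ptch1 and gli2a were named in this way. Its fold changes and p-values were not used. Other names came from the reference tables, which hold symbols for 29201 identifiers, and of 361 symbols sought on all lists 329 were matched.

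Differences were computed with edgeR 4.0.16 (filterByExpr, TMM, quasi-likelihood test) and DESeq2 1.42.0 under R 4.3.3, and limma 3.58.1 was loaded with edgeR. The threshold was an adjusted p of 0.05 after Benjamini-Hochberg adjustment over all genes tested. Figures were made in matplotlib 3.10.9 (Python 3.11.15). The edgeR procedure was tested on simulated data. The simulated libraries were independent, with the same dispersion for all genes and no tank or age structure. That test therefore does not cover the spread between the pools studied here. Control libraries 1 to 4 were compared with wounded libraries 2 to 4. Age was tested with the treatment as a covariate, and the interaction of both, in all 8 libraries, was added after the data had been seen. The numbers pair the libraries, since the study states that control and wounded fish of an age came from the same tank, and libraries of 1 number deviated together from the group means, with correlations of 0.158, 0.238, 0.215 and 0.293 for numbers 1 to 4. The block is an alternative because the study's methods name none. Without wounded library 1 the block leaves control library 1 unpaired, so that the wounding difference then rests on tanks 2 to 4. Alternatives were also made without each library in turn, with age group as a covariate, in all 8 libraries (block included or not), with the Wald test or the size factors of DESeq2, and with the filter set to any count or to 10 counts per library. Members and lists were chosen with earlier results of these data known. The text names all members, up to 4 genes per Hedgehog, cilium and GDNF list with the smallest adjusted p after wounding, and for GAS1 ENSDARG00000077298 and ptch1 the 5 genes nearest in pattern. BOC and SUFU were named after their values had been seen. Genes withheld for evaluation are not reported here. Libraries are pools of fish from 1 tank each, and p-values measure the spread between these pools.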

Additional observations from a re-analysis of the deposited data

Results flagged for a closer look

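Among the 4 wounded libraries, 1 stood apart for the SHH copy ENSDARG00000038867. Wounded library 1 had 2 counts, or 0.0474 CPM, where the other wounded libraries had 0 counts, and the gap to the nearest of them was the whole range. This level is under the limit of 3 counts that a count of 0 allows. With a single library above 0 the gap equals the range whatever the count, so that the usual chance rate of 1 in 20 does not hold here.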

How the results depend on the processing

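No tested member changed sign between wounded and control corneas under any of the 15 alternatives, and GAS1 ENSDARG00000077298 was called lower under all of them, which describes a gene selected on this difference. By age, ptch1, gli2a, gli3 and GAS1 ENSDARG00000077298 changed sign when single libraries were left out. The count of members called higher, 0, became 1 (gli2a) with DESeq2's Wald test, in all 8 libraries with the replicate block and without control library 2, so that leaving out single libraries gave 0 to 1. With the replicate block in the 7 libraries, gli2a had a log2 difference of 0.55 and GAS1 ENSDARG00000077298 of -1.21, and among the other Hedgehog genes 1 was called higher and 3 lower. Of these genes, 0 in either direction by edgeR, DESeq2 called 2 higher and 5 lower, all 8 libraries with the replicate block gave 1 higher and 2 lower, and every gene with a count gave 1 lower. Leaving out single libraries gave 0 to 1 higher and 0 to 1 lower, and the count of 1 came without control library 2. By age, the other Hedgehog genes called lower in older fish became 1 with DESeq2 (MGRN1 ENSDARG00000100072) and 2 with every gene with a count (MGRN1 and MYCN). The causes were not tested. Over all genes, 139 were higher and 120 lower. The counts became 610 and 709 with DESeq2, 514 and 475 with the replicate block, and 276 and 204 with every gene with a count. They were 456 and 349 in all 8 libraries with the block and 207 and 193 with age as a covariate. With at least 10 counts in every library they were 192 and 159. Leaving out single libraries gave 10 to 264 higher and 7 to 192 lower, and the lowest counts came without wounded library 3. By age, 24 genes were higher and 21 lower, and the counts became 184 and 123 with DESeq2, 286 and 278 with every gene with a count, 16 and 8 in all 8 libraries, 7 and 4 in the controls alone, and 2 to 27 and 5 to 23 when single libraries were left out, lowest without wounded library 4. The members were chosen by their difference between wounded and control corneas, and each group held 3 or 4 pools. No test here therefore separates that difference from the spread between pools, for gli2a as for ptch1, gli1 and gli3. The ligands lie near the counting limit.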
